A study of Mus musculus with 100 samples.

Results

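Gene expression in F KSR2 and F KSR4, a pair of female KSR-iPSC lines, was compared with that in TX 2i ESCs, so that the number of X chromosomes was the same on both sides. The comparison holds 9 of the 18 RNA-seq libraries of the series, 3 labelled as biological replicates of each of F KSR2, F KSR4 and TX 2i ESCs, out of 100 samples in all. The libraries were taken by their labels, and the male KSR-iPSC lines and the female MEFs were left out of every test. F KSR2 and F KSR4 were each grown from 1 colony, picked after reprogramming of female F1 MEFs that had an i4F-BL6 mother and a CAST father. These cells carry the doxycycline-inducible cassette of Oct4, Sox2, Klf4 and c-Myc, with the rtTA transactivator at the Rosa26 locus, and were kept without doxycycline on feeder cells in medium with Knockout Serum Replacement (KSR) and LIF. TX 2i ESCs are a female F1 ESC line of the same direction of cross, BL6 mother and CAST father, kept with LIF and with the 2i inhibitors CHIR99021 and PD0325901. The methods give the base medium of the ESCs only by reference, next to a medium with fetal bovine serum, so serum on that side is likely but not certain. F KSR2 has a maternal uniparental disomy of chromosome 6, so both of its copies are BL6. The sides therefore differ in medium, inhibitors, cell line and cell origin at once, and these cannot be told apart here. Each line stands for 1 clone, or for the 1 ESC line, so the replicates give the spread between cultures of a line and not between lines of a kind.

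PD0325901 blocks MEK, the kinase that activates ERK downstream of FGF receptors, and CHIR99021 blocks GSK3, the kinase that marks beta-catenin for degradation. ERK signalling is known to drive mouse pluripotent cells out of the naive state, and it switches on its own inhibitors, the Sprouty and Spred proteins and the dual-specificity phosphatases, as well as transcription factors of the ETS and EGR families. Stabilised beta-catenin relieves repression by TCF7L1 and activates genes such as Axin2, Sp5 and Cdx1.

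The deposited values are log2 RPM, which are the reads of a gene relative to the size of its library and not to the gene's length, so levels are compared between libraries and not between genes. The reads on genes numbered 13183036 to 16591759 per library (median 15088680), and 1 read corresponded to -4.22 to -3.89 log2 RPM. Across genes, the Pearson r between replicates was 0.962 to 0.972 for TX 2i ESCs, 0.947 to 0.958 for F KSR2 and 0.886 to 0.923 for F KSR4. F KSR4 replicate 2 stood apart, with an r of 0.886 and 0.893 to the other libraries of its line and 82.5% of its reads on genes, against a highest share of 92.1% among the 9. All 9 libraries carried the transcripts that define pluripotent cells. Pou5f1, which encodes Oct4, stood between 9.57 and 10.15 log2 RPM in the KSR-iPSCs and between 10.24 and 10.52 in the ESCs.

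Of 25965 genes in the table, 13370 exceeded a log2 RPM of 0 in 3 or more of the 9 libraries and were tested with limma. A gene at or under 0 in all 3 ESC libraries passed this filter through the KSR-iPSCs and could only come out higher. Called genes of this kind include Spry4, Egr2, Wnt8a, Ccnd2, Sox7, Gata6, Pax6, Neurod1, Col3a1, Acta2, Tagln, Slc40a1 and Tdrd1. A gene above 0 only in the ESCs could likewise only come out lower. The direction of such calls, and their part in a list's count, is no support. At a Benjamini-Hochberg adjusted p of 0.05, 1026 genes differed, which is 7.67% of those tested. In the KSR-iPSCs 459 genes were higher (3.43%) and 567 were lower (4.24%), and 3041 genes had an unadjusted p under 0.05. The 6 KSR-iPSC libraries did not overlap with the 3 ESC libraries for 420 of the higher and 546 of the lower genes. Such separation comes from the same values as the call and is no added support. Its share over all tested genes is not given here. The size of the difference exceeded 2 on the log2 scale for 250 of the higher and 174 of the lower genes, and its median over all called genes was 1.76 in absolute value. The split between directions depended on the centring: with each library centred on its median, 573 genes were higher and 449 lower. The genes nearest to the threshold were Adam10 and Fam3a just inside, with differences of -0.89 and -0.88, and Gtf2e2 and 4930447C04Rik just outside, with -0.77 and 1.28. The counts rested on the ESC libraries more than on the others, since they fell to 293, 366 and 384 called genes without TX 2i ESC replicate 1, 2 or 3, and rose to 1498 without F KSR4 replicate 2. In RNA of whole cultures, fewer cells with a transcript and less of it per cell cannot be told apart.

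**Figure D1:**
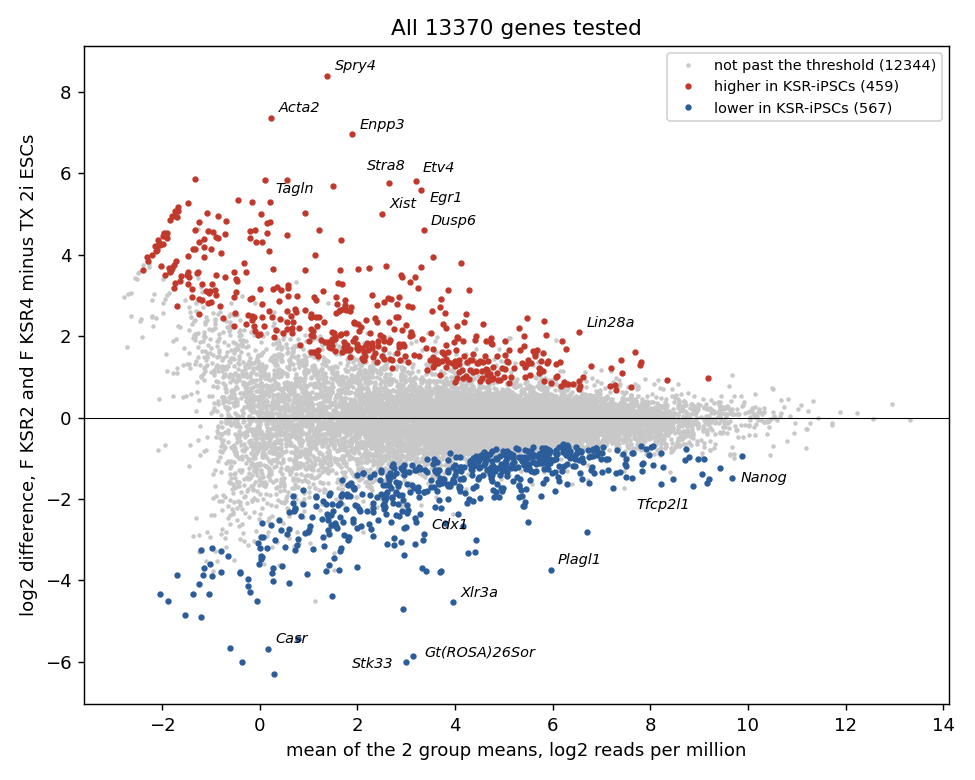
Each of the 13370 genes tested is plotted by the mean of the KSR-iPSC and ESC group means (x axis, log2 RPM) and by the log2 difference between F KSR2 and F KSR4 together and TX 2i ESCs (y axis), with genes past the threshold in red (459, higher in KSR-iPSCs) and blue (567, lower). Spry4 lies at the top with a difference of 8.40, while Stk33 and Gt(ROSA)26Sor lie among the lowest at -6.02 and -5.87.

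The largest increase of all named genes was that of Spry4, a Sprouty protein that holds back receptor tyrosine kinase signalling towards ERK. Spry4 stood at 7.77, 4.90 and 7.29 log2 RPM in F KSR2, at 6.77, 2.05 and 4.71 in F KSR4, and at -2.57, -4.22 and -1.65 in TX 2i ESCs, where it had 3, 1 and 5 reads. The groups did not overlap, although F KSR4 replicate 2 lay well under the other 5 KSR-iPSC libraries. The difference was 8.40 (SE 1.01, adjusted p = 0.000379). On counts fitted with limma-voom it did not pass (adjusted p = 0.167). In the 6 libraries of the male KSR-iPSC lines, which were not in the test, Spry4 lay between 6.56 and 8.37.

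Etv4, an ETS transcription factor induced by FGF and ERK, on chromosome 11 (chr11:101769742-101785371, GRCm38, minus strand), had the smallest adjusted p of the ERK targets. Its 6 KSR-iPSC libraries were at 6.69, 6.54 and 5.86 in F KSR2 and at 6.58, 5.35 and 5.54 in F KSR4, and the ESC libraries were at 0.84, -0.77 and 0.78. The lowest KSR-iPSC library was thus far above the highest ESC library. The difference was 5.81 (SE 0.41, adjusted p = 1.39e-05) and passed the threshold under every alternative tried. In male KSR-iPSCs Etv4 lay between 7.14 and 8.20.

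The list of ERK feedback and target genes held 23 genes, of which 22 were tested. Of these, 10 rose and 0 fell, against 3.43% and 4.24% of all genes tested, and the median difference was 1.28, against -0.08 over all genes. Among the 10, Spry4 and Egr2 passed the filter through the KSR-iPSCs and could only come out higher. At an unadjusted p under 0.05, which 3041 of 13370 genes had, limma had 14 members higher and 0 lower. With limma-voom 7 were called higher and 0 lower. Among the feedback inhibitors, Dusp6, the phosphatase of the dual-specificity family that acts on ERK itself, rose by 4.61 (SE 0.63, adjusted p = 0.000898). Its KSR-iPSC libraries ran from 3.55 to 6.85 with a median of 5.85, and the ESC libraries were at 2.27, 0.48 and 0.42. Dusp4, a related phosphatase of the nucleus, rose by 3.17 (SE 0.55, adjusted p = 0.00409). Spred2, which inhibits the activation of RAF by RAS, passed the threshold narrowly, with a difference of 1.15 (adjusted p = 0.0491) and overlapping groups.

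Among the transcription factors, the immediate early gene Egr1 rose by 5.60 (SE 0.63, adjusted p = 0.000288), from 2.53, -0.52 and -0.52 in the ESC libraries to a median of 5.99 in the KSR-iPSCs, whose lowest library was at 5.15. Fos, a component of AP-1, rose by 2.93 and its groups did not overlap, with 2.85 to 4.97 against 0.89 to 1.42. Egr2 had few reads, 9 to 80 in the KSR-iPSC libraries and 5, 0 and 0 in the ESCs, and rose by 3.96 (adjusted p = 0.0157). Etv1 (2.79, adjusted p = 0.0188) and Fosl1 (2.48, adjusted p = 0.0205) completed the 10, of which the groups of Etv1 overlapped. Egr2 and Fosl1 missed the threshold with limma-voom (adjusted p = 0.0514 and 0.0637), Egr2 also on log2(RPM + 1) (0.0559), and Fosl1 and Etv1 without a filter on low values (0.0544 and 0.0644). The 12 members that did not pass ranged from -0.90 in Ier3 to 1.57 in Myc. Etv5, an ETS factor often read as an ERK target together with Etv4, stood at 6.89 to 8.46 in the KSR-iPSCs and 8.38 to 8.65 in the ESCs (difference -0.56, adjusted p = 0.345). Ccnd1 differed by -0.15 (adjusted p = 0.870). Myc spread from 1.32 to 7.22 between KSR-iPSC libraries, with the lowest in F KSR4 replicate 2.

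**Figure D2:**
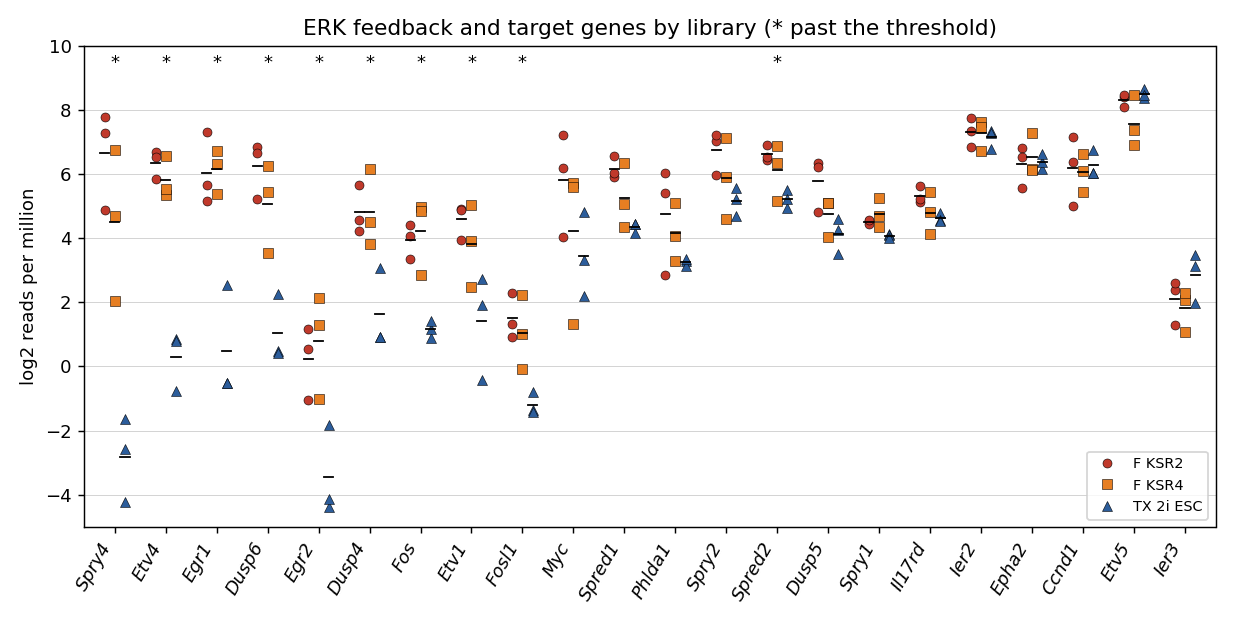
The log2 RPM (y axis) of the 22 tested ERK feedback and target genes is shown for each library, with F KSR2 as circles, F KSR4 as squares, TX 2i ESCs as triangles, bars at the group means and stars over the 10 genes past the threshold. The order is that of the difference, from Spry4 (8.40) on the left to Ier3 (-0.90) on the right, and the libraries of both sides overlap for Etv5.

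F KSR4 replicate 2 was the lowest of the 6 KSR-iPSC libraries for Spry4, Dusp6, Etv1, Etv4, Spry2 and Myc, and without it 14 members of the list passed instead of 10. Over all genes the higher calls rose as well, from 459 of 13370 to 689 of 13284. Without 1 of the ESC libraries 6 to 8 passed. The calls lost in that way were Fosl1 in each case (adjusted p 0.0593 to 0.101), Spred2 in each case (0.117 to 0.212), Egr2 without TX 2i ESC replicate 2 or 3 (0.0870 and 0.0798), and Etv1 without the same replicates (0.110 and 0.0507). Spred2 was also lost without any 1 of the KSR-iPSC libraries other than F KSR4 replicate 2, and under 5 other settings (0.0513 to 0.102). Spry4, Etv4, Egr1, Dusp6, Dusp4 and Fos kept theirs without any single library.

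The genes that encode the route from FGF to ERK did not pass in either direction. All 25 of the listed components were tested, and 0 of them differed in the limma test, against 7.67% of all genes. At that share few of 25 genes would pass, so the count does not set the list apart. The median difference was 0.06. At an unadjusted p under 0.05, which 3041 of 13370 genes had, 4 were higher and 3 lower, and limma-voom called 0. The ligand Fgf4 was at -0.50, the receptors Fgfr1 and Fgfr2 at -0.75 and 1.45, the kinases Map2k1 and Map2k2, which PD0325901 blocks, at -0.58 and -0.02, and the ERK gene Mapk3 at 0.06. Under the other settings up to 2 components were called higher and up to 1 lower.

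The promoters of these genes were read from RefSeq (GRCm38.p6), from 250 bases before to 50 bases after each start site. The ETS motif CCGGAAG, searched on both strands, was in 2910 of 32851 promoters (8.86%). The 13 ERK targets that matched by symbol had 19 promoters, of which 0 held it. Only 5 of the 10 ERK targets that rose were matched. Spry4, Etv4, Egr1, Dusp4 and Fosl1 were not, so nothing is known here of motifs in their promoters. The CArG box, the site read by serum response factor at immediate early genes, was searched for after the values had been seen. It was in 535 promoters (1.63%) and in those of 2 of the 13 matched ERK targets, Egr2 and Dusp5, of which Egr2 passed the threshold. One of the Egr2 promoters (chr10:67537619-67537918, plus strand) is shown because it carries such a box in capitals, beginning 72 bases before the start site. A match is a description of the letters and does not mark a site in use.
Egr2 promoter: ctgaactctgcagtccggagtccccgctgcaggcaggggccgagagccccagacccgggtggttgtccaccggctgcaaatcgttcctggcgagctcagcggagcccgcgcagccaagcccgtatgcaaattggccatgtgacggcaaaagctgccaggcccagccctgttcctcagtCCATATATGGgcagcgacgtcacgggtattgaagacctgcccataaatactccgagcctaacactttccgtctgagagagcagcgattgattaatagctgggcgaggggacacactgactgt

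Of 18 listed beta-catenin targets 13 were tested, of which 2 fell and 2 rose, against 4.24% lower and 3.43% higher over all genes. The 2 that rose passed the filter through the KSR-iPSCs and could only come out higher, so they support no direction. At an unadjusted p under 0.05, which 3041 of 13370 genes had, limma had 2 members higher and 5 lower. With limma-voom 1 was called higher and 4 lower. The median difference was -0.22. Cdx1, a caudal homeobox gene activated by TCF factors, stood at 0.84, -0.05 and 3.10 in F KSR2, 2.83, 2.58 and 2.28 in F KSR4 and 5.07, 4.71 and 4.60 in the ESCs. Every KSR-iPSC library was under every ESC library, and the gene fell by 2.87 (SE 0.60, adjusted p = 0.0111). Tnfrsf19, also called Troy, a receptor of the TNF family, fell by 1.69 (SE 0.36, adjusted p = 0.0123), from 4.65 to 4.79 in the ESCs to between 2.22 and 3.99. Axin2, the negative feedback regulator of the pathway, lay between 1.33 and 3.43 in the KSR-iPSCs and between 3.83 and 4.09 in the ESCs, without overlap and just short of the threshold (difference -1.37, adjusted p = 0.0575). Sp5, a transcription factor under direct TCF control, had 415, 129 and 111 reads in the ESCs and 0 to 61 in the KSR-iPSCs (difference -3.74, adjusted p = 0.0686).

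Wnt8a and Ccnd2 rose by 4.96 (adjusted p = 0.00336) and 4.54 (adjusted p = 0.00360). Wnt8a encodes a secreted WNT ligand and had 15 to 178 reads in the KSR-iPSCs and 5, 1 and 1 in the ESCs. Ccnd2 encodes cyclin D2 and had 34 to 243 against 7, 0 and 10. Both Wnt8a and Ccnd2 passed the filter through the KSR-iPSCs and could only come out higher. Among 18 genes of the pathway itself, Fzd7, a WNT receptor, rose by 1.58 (adjusted p = 0.00541) and Tcf7l2, which binds beta-catenin on DNA, by 1.38 (adjusted p = 0.0149), while Gsk3b fell by 0.82 (adjusted p = 0.0339). The median of these 18 was -0.02, and over all genes 3.43% were higher and 4.24% lower. Gsk3b encodes one of the targets of CHIR99021 and lies on chromosome 16, whose genes were low as a body in the KSR-iPSCs, as described with the chromosomes. Ctnnb1, the gene of beta-catenin, differed by 0.10 and Tcf7l1 by -0.48, and neither passed. Without 1 of the ESC libraries the calls of Tnfrsf19 (adjusted p 0.0556 to 0.0760) and Gsk3b (0.0873 to 0.186) were lost in each case, Cdx1 without replicate 1 (0.0719), and Tcf7l2 without replicate 1 or 2 (0.0951 and 0.0772). Gsk3b was lost as well without F KSR2 replicate 1 or 2 or F KSR4 replicate 1 (0.0509, 0.0634 and 0.0516) or without a trend (0.0609), and Wnt8a did not pass with limma-voom (0.0644).

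The TCF/LEF motif CTTTGAT, searched on both strands, was in 1225 of 32851 RefSeq promoters (3.73%). Of the 11 beta-catenin targets matched by symbol, 2 held it, Sp5 and Tnfrsf19. Both had lower values in the KSR-iPSCs, as had most of the list, where 4 of 13 tested genes had a positive difference. Sp5 did not pass the threshold, and Tnfrsf19 was the only called target matched. The other promoter of Tnfrsf19 did not hold the motif, so no link of motif and direction is shown. The promoters of Sp5 (chr2:70474673-70474972, plus strand) and Tnfrsf19 (chr14:61037938-61038237, minus strand) are shown with the motif in capitals, which begins 104 and 202 bases before the start site and is written as its reverse complement ATCAAAG in Tnfrsf19. Such a match is a description only.
Sp5 promoter: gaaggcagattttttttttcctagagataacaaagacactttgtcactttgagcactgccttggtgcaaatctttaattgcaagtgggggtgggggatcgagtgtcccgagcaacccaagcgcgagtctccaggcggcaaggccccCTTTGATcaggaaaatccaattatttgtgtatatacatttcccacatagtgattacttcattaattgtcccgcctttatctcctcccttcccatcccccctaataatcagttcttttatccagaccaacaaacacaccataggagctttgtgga
Tnfrsf19 promoter: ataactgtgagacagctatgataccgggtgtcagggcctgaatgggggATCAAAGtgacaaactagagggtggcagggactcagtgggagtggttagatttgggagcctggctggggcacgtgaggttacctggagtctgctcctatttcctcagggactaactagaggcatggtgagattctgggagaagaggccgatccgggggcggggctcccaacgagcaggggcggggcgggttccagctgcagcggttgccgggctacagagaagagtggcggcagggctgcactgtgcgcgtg

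The naive factor Nanog was lower in the KSR-iPSCs than in every ESC library. Nanog (chr6:122707489-122714633, GRCm38, plus strand) stood at 8.97, 8.25 and 9.75 log2 RPM in F KSR2, at 8.72, 8.86 and 9.00 in F KSR4 and at 10.26, 10.14 and 10.85 in TX 2i ESCs. It fell by 1.49 (SE 0.28, adjusted p = 0.00664), a call lost without TX 2i ESC replicate 3 (adjusted p = 0.0528). Male KSR-iPSCs had Nanog between 7.75 and 8.71.

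Of 17 naive pluripotency factors, 3 fell and 0 rose in limma (6 and 1 at an unadjusted p under 0.05), with a median of -0.22. Over all genes 4.24% were lower and 3.43% higher, and 3041 of 13370 had an unadjusted p under 0.05. Beside Nanog the called factors were Tfcp2l1, a factor downstream of LIF and WNT signalling, which fell by 1.63 (SE 0.32, adjusted p = 0.00858), and Prdm14, which keeps FGF signalling and DNA methylation low in naive cells and fell by 1.36 (SE 0.26, adjusted p = 0.00786). Neither gene had overlapping groups, with Tfcp2l1 at 6.68 to 8.33 against 8.94 to 9.15 and Prdm14 at 4.82 to 6.04 against 6.44 to 6.94. Without TX 2i ESC replicate 1 Tfcp2l1 was not called (adjusted p = 0.0560), and without replicate 3 Prdm14 was not (0.0598). The other 14 included Klf4 (-0.80, adjusted p = 0.0968), Esrrb (-0.22, adjusted p = 0.627) and Gbx2 (1.88, adjusted p = 0.107), which spread from 2.42 to 6.17 among the KSR-iPSC libraries. Of 12 core pluripotency factors, 1 rose and 0 fell in limma (3 and 2 at an unadjusted p under 0.05). The one was Lin28a, an RNA-binding protein that blocks the maturation of let-7 microRNAs, at 6.62 to 8.32 in the KSR-iPSCs and 5.61, 5.22 and 5.65 in the ESCs (difference 2.103, SE 0.33, adjusted p = 0.00219). Pou5f1 and Sox2 differed by -0.44 (adjusted p = 0.197) and -0.31 (adjusted p = 0.374), without overlap between the libraries of either gene, and the list had a median of -0.29.

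Genes of the formative and primed states, which follow the naive state as cells prepare to differentiate, had a median difference of 0.61 over 18 tested genes, of which 2 rose and 0 fell in limma, and 7 and 0 at an unadjusted p under 0.05. Over all genes 3.43% were higher and 4.24% lower, and 3041 of 13370 had an unadjusted p under 0.05. The 2 list members that rose were Grhl2, an epithelial transcription factor (2.08, SE 0.35, adjusted p = 0.00334), and Sox4 (1.66, SE 0.37, adjusted p = 0.0155), whose call was lost without any 1 of the ESC libraries (adjusted p 0.0530 to 0.0909). Fgf5, the standard marker of the primed epiblast, had 43, 17 and 129 reads in F KSR2, 198, 1 and 114 in F KSR4 and 3, 1 and 1 in the ESCs, and missed the threshold (difference 4.64, SE 1.36, adjusted p = 0.0533). The 1 read was in F KSR4 replicate 2, the only KSR-iPSC library that overlapped the ESCs. Otx2, which opens formative enhancers, missed it as well (1.69, adjusted p = 0.0544), with 3.94 in F KSR4 replicate 2 and 5.09 to 6.73 in the other KSR-iPSC libraries, against 3.66 to 4.45. Without F KSR4 replicate 2 the list had 6 higher calls in place of 2. Over all genes the higher calls rose as well, from 459 of 13370 to 689 of 13284. Of 11 genes for DNA methylation and its removal limma and limma-voom called 0, with 1 higher and 1 lower at an unadjusted p under 0.05 and a median of -0.06, and the de novo enzymes Dnmt3a and Dnmt3b differed by 1.16 and 0.32.

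**Figure D3:**
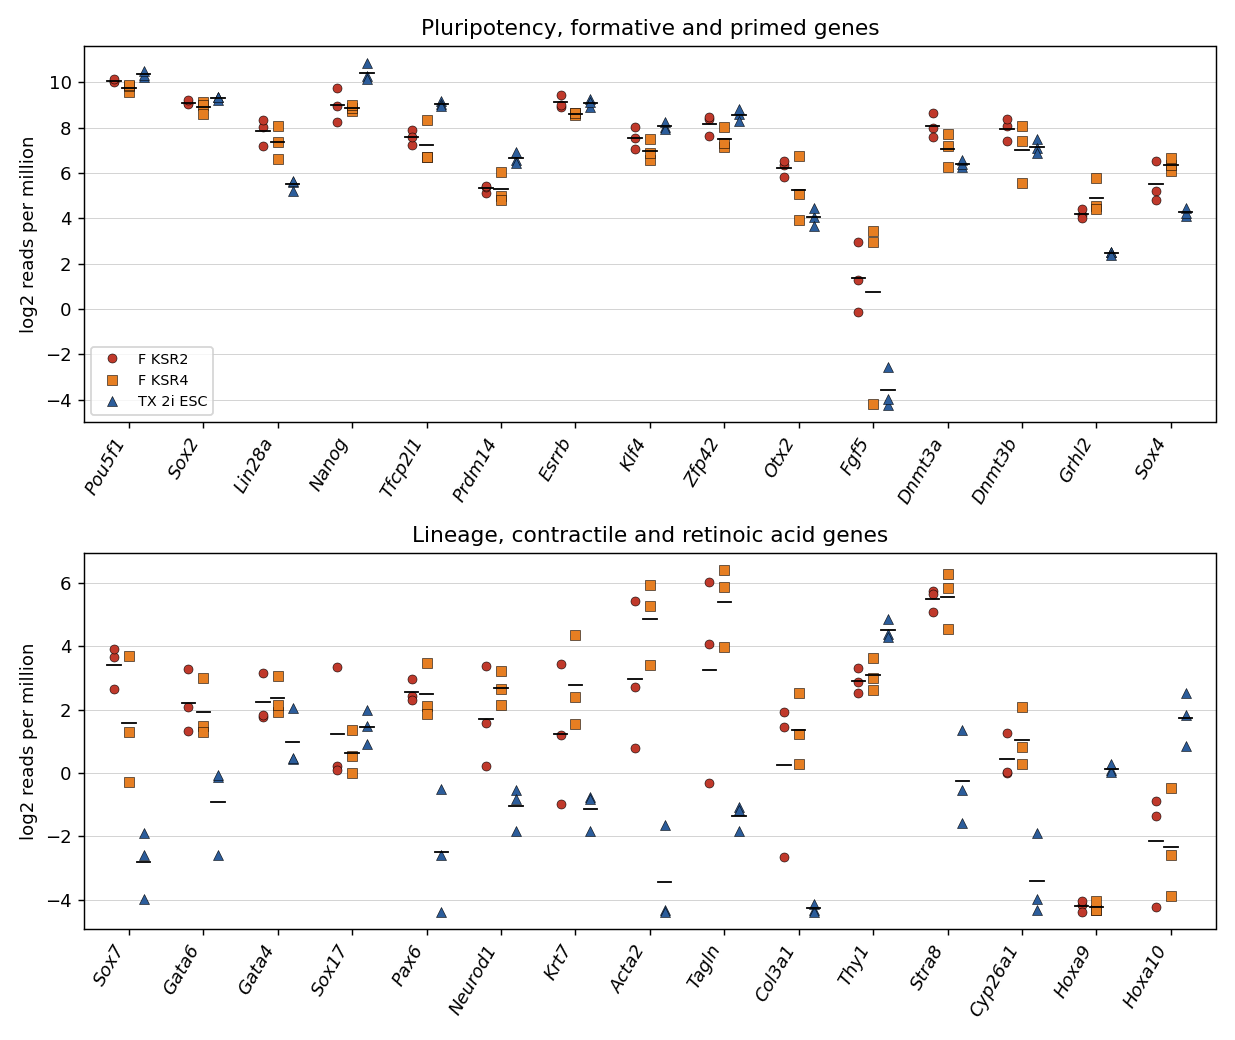
The log2 RPM (y axis) of 15 pluripotency, formative and primed genes (upper panel) and 15 lineage, contractile and retinoic acid genes (lower panel) is shown for each library, with F KSR2 as circles, F KSR4 as squares, TX 2i ESCs as triangles and bars at the group means. All KSR-iPSC libraries are under all ESC libraries for Nanog, Tfcp2l1 and Prdm14 and above them for Lin28a, while for Fgf5 F KSR4 replicate 2 lies with the ESCs.

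Transcripts of the primitive endoderm, the extraembryonic layer set aside from the epiblast under FGF signalling, were higher for 3 of 14 tested markers and lower for 0 in limma (7 and 2 at an unadjusted p under 0.05), with a median of 1.03. Over all genes 3.43% were higher and 4.24% lower, and 3041 of 13370 had an unadjusted p under 0.05. The transcription factors Sox7 and Gata6 rose by 5.31 (SE 0.87, adjusted p = 0.00294) and 2.996 (SE 0.65, adjusted p = 0.0138), and the laminin gene Lamb1 by 1.36 (adjusted p = 0.0136). Sox7 had 15 to 249 reads in the KSR-iPSCs and 3, 5 and 1 in the ESCs. Gata6 had 36 to 158 against 3, 17 and 15. Both Sox7 and Gata6 passed the filter through the KSR-iPSCs and could only come out higher. Sox17 (-0.54) and Gata4 (1.33) did not pass, and the summed level of the 15 listed markers was 460.1 to 888 RPM in the KSR-iPSCs and 715 to 800.2 in the ESCs, which overlap. Gata6 was not called without TX 2i ESC replicate 1 (adjusted p = 0.0929), Lamb1 without replicate 1 or 2 (0.0932 and 0.0631), and Sox7 not with limma-voom (0.101).

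Of the other lineages, 2 of 7 neural markers, 1 of 8 trophoblast markers and 0 of 6 mesoderm markers passed as higher in limma and 0 of each as lower, against 3.43% higher and 4.24% lower over all genes, with medians of -0.47, 0.65 and 0.44. At an unadjusted p under 0.05, which 3041 of 13370 genes had, 2 neural markers were higher and 2 lower. By the same measure 4 trophoblast markers were higher and 0 lower, and 0 mesoderm markers were higher and 1 lower. With limma-voom 1 neural marker was higher and 0 of the trophoblast and mesoderm markers were called. The neural genes were Pax6, a homeobox gene of eye and brain (5.01, SE 0.70, adjusted p = 0.00105), with 54 to 199 reads against 3, 0 and 11, and Neurod1 (3.25, SE 0.65, adjusted p = 0.00957), with 19 to 193 against 5, 13 and 9. Nes and Tubb3, which mark neural cells more broadly, differed by -1.51 and -0.97 without passing. The trophoblast gene was the keratin Krt7, which passed narrowly with overlapping groups (3.13, adjusted p = 0.0491) and was called in only 5 of its 21 alternatives. Summed levels were 62.4 to 203 RPM in KSR-iPSCs and 121 to 204 in ESCs for the 10 neural markers, 95.0 to 379 and 95.9 to 143 for the 10 trophoblast markers, and 11.8 to 64.8 and 17.9 to 29.0 for the 12 mesoderm markers. Neurod1 was not called without TX 2i ESC replicate 1 (adjusted p = 0.0680) or with limma-voom (0.0701). Both Pax6 and Neurod1 passed the filter through the KSR-iPSCs and could only come out higher.

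Since the KSR-iPSCs were reprogrammed from fibroblasts and kept on feeder cells, 16 fibroblast markers were followed, of which 11 were tested. In limma 1 was higher and 2 were lower, against 3.43% higher and 4.24% lower over all genes. At an unadjusted p under 0.05, which 3041 of 13370 genes had, 3 were higher and 3 lower. Col3a1, a fibrillar collagen, rose, with 49, 3 and 63 reads in F KSR2, 43, 22 and 85 in F KSR4 and 0 in all 3 ESC libraries, and was at least 15.5-fold higher with the ESCs at a floor of 3 reads per library (adjusted p = 0.00784). Thy1 and Col5a1 fell, by 1.52 (adjusted p = 0.0100) and 1.59 (adjusted p = 0.0187), both without overlap. The median of the list was 0.34. Its summed level was 41.0 to 131 RPM in the KSR-iPSCs, which is 0.125 to 0.399% of the median of the female MEF libraries, and 71.0 to 106 RPM in the ESCs, or 0.217 to 0.325%. Between 1 and 3 of the 16 markers had 0 reads in a KSR-iPSC library and 6 or 7 in an ESC library. Thy1 lost its call without TX 2i ESC replicate 1 or 2 (adjusted p = 0.0526 and 0.0753), and so did Col5a1 (0.107 and 0.109).

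Acta2 and Tagln, actin and actin-binding proteins of smooth muscle and activated fibroblasts, were among the 10 largest increases of called genes without overlap and with a mean log2 level above 2 in the KSR-iPSCs. Acta2 had 118, 32 and 709 reads in F KSR2, 697, 192 and 893 in F KSR4 and 0, 0 and 5 in the ESCs, a difference of 7.37 (SE 1.00, adjusted p = 0.000894). Tagln had 303, 15 and 1066 in F KSR2, 1533, 282 and 859 in F KSR4 and 5, 9 and 7 in the ESCs, a difference of 5.69 (SE 1.10, adjusted p = 0.00764). F KSR2 replicate 2 was the lowest KSR-iPSC library for both. Neither passed with limma-voom, with adjusted p of 0.109 for Acta2 and 0.244 for Tagln. In female MEFs their mean levels were 12.29 and 11.07 log2 RPM, and the part of feeder or remaining fibroblast RNA in the differences was not tested.

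Genes with a role in germ cells that promoter methylation silences in other tissues had 5 higher and 1 lower call among 19 tested, against 3.43% higher and 4.24% lower over all genes, with a median of 0.40. With limma-voom 2 were higher and 1 lower. Hormad1 and Sycp3, components of the meiotic chromosome axis, rose by 1.66 (SE 0.20, adjusted p = 0.000426) and 2.97 (SE 0.37, adjusted p = 0.000519). Hormad1 stood between 6.30 and 6.85 in the 6 KSR-iPSC libraries and at 4.65, 4.93 and 4.98 in the ESCs, and Sycp3 between 4.02 and 4.66 against 0.30, 2.17 and 1.64. Tdrd1 (3.10, adjusted p = 0.0285), Taf7l (1.89, adjusted p = 0.0427) and Mael (1.70, adjusted p = 0.0486) also passed, the last 2 with overlapping groups, while Dazl differed by -0.86 (adjusted p = 0.434). Of these, Tdrd1 passed the filter through the KSR-iPSCs and could only come out higher. Rpl10l, a ribosomal protein gene of spermatogenesis, fell by 1.62 (adjusted p = 0.0105). Tdrd1, Taf7l and Mael did not pass with limma-voom (0.0774, 0.0758 and 0.0677) or without a filter on low values (0.0565, 0.102 and 0.109), and under other settings 2 to 5 members were called higher. Without 1 of the ESC libraries, Tdrd1 was lost for replicate 2 or 3 (adjusted p = 0.158 and 0.0869), Mael and Taf7l for replicate 1 (0.186 and 0.220) or 2 (0.255 and 0.165), and Rpl10l for replicate 1 or 3 (0.0703 and 0.0524). Without 1 of the KSR-iPSC libraries Taf7l was lost for any of F KSR2 or for F KSR4 replicate 1 (0.0532 to 0.0818), and Mael for all but F KSR4 replicate 1 (0.0518 to 0.0912). Of 14 genes of the 2-cell-like state 12 were in the table and 0 passed the filter on low values.

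Among 17 imprinted genes examined in the study, Plagl1 fell by 3.74 (SE 0.34, adjusted p = 9.10e-05). The study picked the 17 on these samples, for expression from a single allele in MEFs and a minimum level in the iPSCs. Their counts and median are therefore not those of an independent list. Plagl1, a zinc finger gene normally expressed from the paternal copy (chr10:13090691-13131694, GRCm38, plus strand), stood at 4.88, 2.98 and 3.83 in F KSR2, 4.04, 4.29 and 4.50 in F KSR4 and 8.02, 7.68 and 7.78 in the ESCs. The study reported Plagl1 as biased towards its normally silent copy in the pluripotent cells. The groups of Plagl1 were far apart, and its call held under every alternative. Impact (0.75, adjusted p = 0.0385) and Meg3 (1.62, adjusted p = 0.0439, overlapping groups) rose, and neither was called without any 1 of the ESC libraries (adjusted p 0.0958 to 0.233 and 0.0970 to 0.211). Impact was lost as well without F KSR2 replicate 2 or 3 or F KSR4 replicate 1 (0.0667 to 0.0769), and Meg3 without F KSR2 replicate 1 or 2 or F KSR4 replicate 1 (0.0627 to 0.0773). Neither passed without a trend or without a filter on low values (0.0559 to 0.115), and Meg3 missed with limma-voom as well (0.0540). H19 differed by 1.90 and Igf2r by -0.17 without passing, and the list had a median of 0.26. Over all genes 3.43% were higher and 4.24% lower.

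In the lists of LIF, BMP and Nodal signalling, limma called 1 of 12, 2 of 13 and 2 of 13 tested genes, against 7.67% of all genes. At an unadjusted p under 0.05, which 3041 of 13370 genes had, 3 LIF genes were higher and 3 lower. In each of the BMP and Nodal lists 2 were higher and 3 lower at that level. With limma-voom the calls were 1 higher and 0 lower for LIF, 0 and 2 for BMP, and 1 and 2 for Nodal. Of 12 LIF and STAT3 genes Junb, an AP-1 component, rose by 1.40 (adjusted p = 0.00907, lost without TX 2i ESC replicate 2 with 0.0575), and Socs3 differed by 0.50, with a median of 0.42 over the list. Of 13 tested BMP and ID genes, Id1, an inhibitor of basic helix-loop-helix factors and a target of BMP, rose by 2.72 (SE 0.64, adjusted p = 0.0193). Its KSR-iPSC libraries ran from 3.35 to 6.24 and the ESCs from 1.10 to 3.21. Smad6, an inhibitor of BMP signalling, fell by 1.63 (SE 0.28, adjusted p = 0.00344), the other ID genes Id2 and Id3 were at 1.32 and -1.22 without passing, and the median was -0.09. Of 13 Nodal pathway genes, Pcsk6 and Furin, the proteases that process Nodal, fell by 1.32 (adjusted p = 0.00294) and 1.20 (adjusted p = 0.0144), and Lefty1 and Lefty2 were at 1.05 and -1.73 without passing. The median of that list was -0.08, equal to that of all genes at this precision. Id1 was not called without TX 2i ESC replicate 1 or 2 (adjusted p = 0.0684 and 0.122), with limma-voom (0.0571), without a filter on low values (0.0666) or without a trend (0.0517), and Furin was not without any 1 of the ESC libraries (0.0543 to 0.0965).

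In metabolism, 4 of 14 genes of fatty acid synthesis fell and 0 rose in limma (9 and 0 at an unadjusted p under 0.05), with a median of -0.59. Over all genes 4.24% were lower and 3.43% higher, and 3041 of 13370 had an unadjusted p under 0.05. Scd2 and Scd1, the desaturases that make monounsaturated fatty acids, fell by 1.50 (SE 0.28, adjusted p = 0.00568) and 1.35 (SE 0.27, adjusted p = 0.00957). Scd2 lay between 7.70 and 9.26 in the KSR-iPSCs and at 9.86, 10.29 and 9.73 in the ESCs, and Scd1 between 5.98 and 7.41 against 7.88 to 8.37. Me1, an enzyme that supplies NADPH, fell by 1.20 (adjusted p = 0.00914), and Srebf1, the transcription factor gene of the pathway, by 0.66 (adjusted p = 0.0414). Without 1 of the ESC libraries 1 to 3 of the 4 passed. Scd1 and Me1 were lost without replicate 2, both with an adjusted p of 0.0698, and Srebf1 without any of the 3 (0.160 to 0.181). Srebf1 was also lost without any of F KSR2 or without F KSR4 replicate 1 (0.0533 to 0.0796), and with limma-voom, median centring, quantile normalization or no trend (0.0523 to 0.0733).

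Of 25 genes of sterol synthesis and uptake 1 rose, Hmgcs1 (0.68, adjusted p = 0.0466), against 3.43% of all genes, and the median was -0.30. The call of Hmgcs1 was lost without any 1 of the ESC libraries (adjusted p 0.150 to 0.215) and without F KSR2 replicate 1 or 3 or F KSR4 replicate 1 (0.0674 to 0.0795). It was also lost without a filter on low values (0.0535) or a trend (0.0813). Of 19 glycolysis genes 0 passed in limma or limma-voom. At an unadjusted p under 0.05, which 3041 of 13370 genes had, 8 of the 19 were lower and 1 higher. Only 2 of the glycolysis genes had a difference above 0 and the median was -0.65, with Ldha at -0.91 (adjusted p = 0.156) and Gapdh at 0.39. Among 20 genes of the amino acid response, Asns, which makes asparagine, fell by 1.60 (SE 0.24, adjusted p = 0.00184), from 9.90, 10.06 and 9.91 to between 7.97 and 9.09, while the transcription factor Atf4 differed by 0.08 and the median was -0.27. Of 14 antioxidant genes 0 passed in limma or limma-voom, with 1 higher and 1 lower at an unadjusted p under 0.05 and a median of 0.10. Among 9 tested iron genes the exporter Slc40a1 (3.63, adjusted p = 0.0157) and the ferritin heavy chain Fth1 (0.96, adjusted p = 0.0493) rose, with a median of -0.16. Of these, Slc40a1 passed the filter through the KSR-iPSCs and could only come out higher. Slc40a1 had 28 to 334 reads against 5, 15 and 11, and was not called without TX 2i ESC replicate 1 or 3 (adjusted p = 0.102 and 0.0515), with limma-voom (0.125) or without a filter on low values (0.0590). Fth1 was called in 8 of its 21 alternatives.

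Among 18 genes that govern G1, 3 rose and 1 fell, against 3.43% higher and 4.24% lower over all genes, with a median of -0.17. Beside Ccnd2, Cdkn1c, a CDK inhibitor that is itself imprinted, rose by 3.002 (SE 0.59, adjusted p = 0.00821), with 2.65, 2.81 and 3.06 in F KSR2, 4.24, 4.31 and 5.71 in F KSR4 and 0.24, 1.42 and 0.73 in the ESCs. The F KSR4 libraries were all above those of F KSR2, and both above the ESCs. Rb1 rose by 0.98 (adjusted p = 0.0463), and Cdkn2a, the locus of INK4A and ARF, fell by 1.41 (SE 0.28, adjusted p = 0.00928). Without TX 2i ESC replicate 1 Cdkn1c was not called (adjusted p = 0.0584), without replicate 2 Cdkn2a was not (0.0673), and Rb1 was not called without replicate 1 or 2 (0.279 and 0.165), nor without F KSR2 replicate 2 or 3 or F KSR4 replicate 1 or 3 (0.0607 to 0.0778). Cdkn1c missed with limma-voom (0.0501), and Rb1 without a filter on low values (0.0708) or a trend (0.0690).

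**Figure D4:**
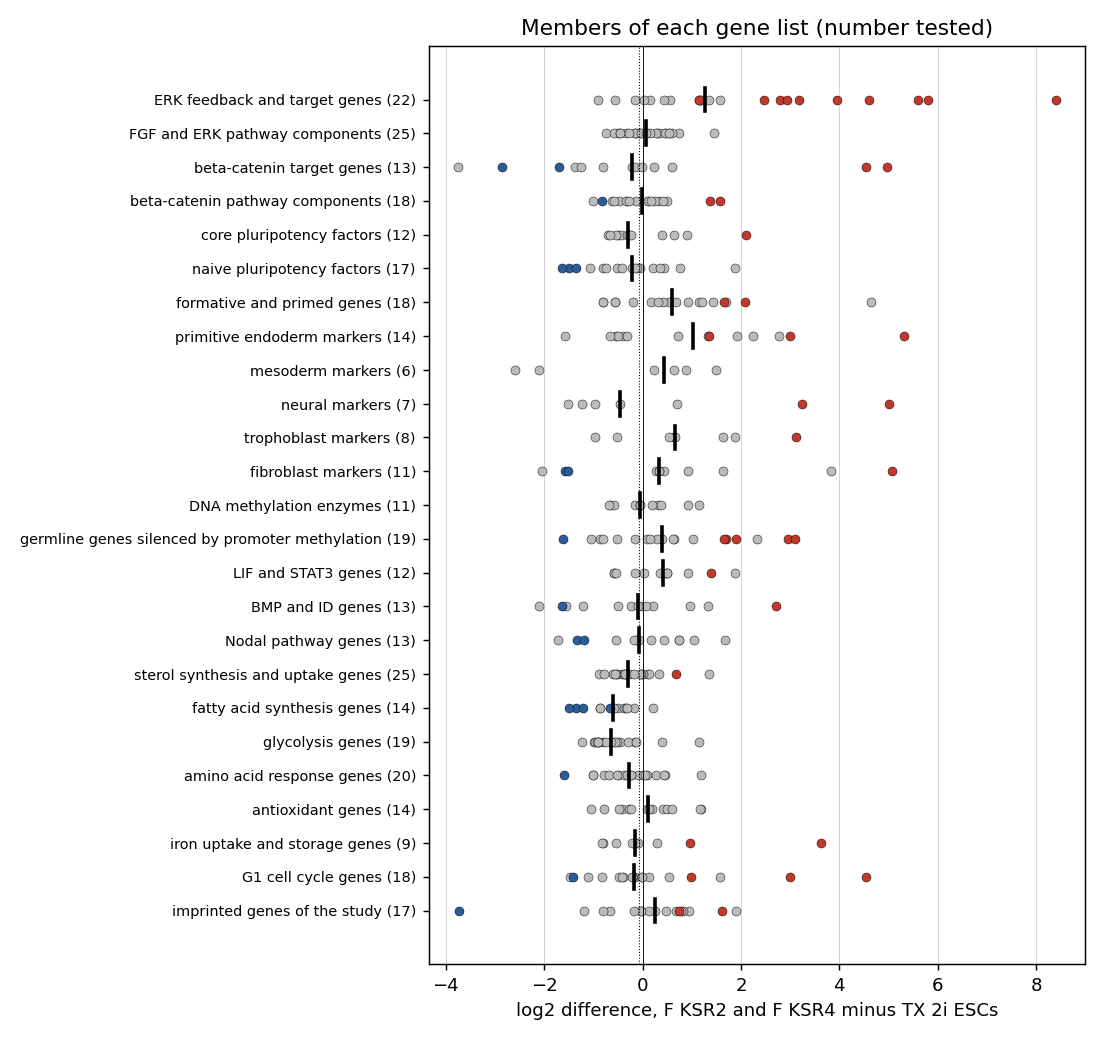
For each of 25 gene lists with tested members (number in brackets), every member is placed by its log2 difference between KSR-iPSCs and TX 2i ESCs (x axis), in red or blue where it passed the threshold as higher or lower and in grey where it did not, with a bar at the list's median and a dotted line at the median of all genes (-0.08). The ERK targets reach furthest to the right, with 10 of 22 in red, and the fatty acid genes have 4 of 14 in blue.

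Outside the lists, the 10 largest increases among clearly expressed genes with separate groups held, beside Spry4, Acta2, Etv4, Tagln and Egr1, the genes Enpp3, 2610528J11Rik, Col6a5, Stra8 and Cplx1. Stra8, a gene induced by retinoic acid at the onset of meiosis, had 603, 1006 and 822 reads in F KSR2, 420, 1405 and 846 in F KSR4 and 6, 13 and 40 in the ESCs, a difference of 5.77 (SE 0.53, adjusted p = 9.10e-05). Enpp3, an ectonucleotidase, rose by 6.97 (adjusted p = 0.000733). Its ESC libraries had 0, 7 and 30 reads, and F KSR4 replicate 2 had 136 against 741 to 1433 in the other KSR-iPSC libraries. Col6a5, a collagen VI chain, rose by 5.84 (adjusted p = 0.000655), 2610528J11Rik by 5.85 (adjusted p = 9.10e-05) and Cplx1, a complexin of synaptic vesicle release, by 5.35 (adjusted p = 0.000930).

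The 10 largest decreases were Pglyrp1, Stk33, Gm694, Gt(ROSA)26Sor, Casr, Cd3g, Ffar3, 2510009E07Rik, Xlr3a and Nkx1-2. Stk33, a serine/threonine kinase gene (chr7:109279223-109439081, GRCm38, minus strand), had 1287, 1088 and 992 reads in the ESCs and 41, 9, 23, 11, 6 and 45 in the KSR-iPSCs, and fell by 6.02 (SE 0.63, adjusted p = 0.000184). Gt(ROSA)26Sor, the non-coding RNA of the Rosa26 locus, had 882, 2310 and 790 reads in the ESCs and 8 to 42 in the KSR-iPSCs, and fell by 5.87 (SE 0.56, adjusted p = 9.10e-05). The part of the rtTA transgene at this locus in the difference was not tested. Pglyrp1, a peptidoglycan recognition protein, had 0 to 22 reads against 275, 278 and 89 (difference -6.31, adjusted p = 0.00288). Gm694 (-6.01), Cd3g (-5.66), Ffar3 (-5.44) and Nkx1-2 (-4.50) had at most 15 reads in any KSR-iPSC library and at least 45 in each ESC library. Casr, the calcium-sensing receptor, and 2510009E07Rik lie on chromosome 16 and fell by 5.68 (adjusted p = 0.000917) and 4.72 (adjusted p = 2.88e-05). Xlr3a, on the X chromosome, fell by 4.53 (adjusted p = 0.00597), and since it has near-identical copies the reads may be split among them. Gm694, Casr, Cd3g, Ffar3 and Nkx1-2 passed the filter through the 3 ESC libraries and were not tested in any fit without 1 of them, so how far these calls rest on single ESC libraries is not known. The calls of Pglyrp1, Stk33, Gt(ROSA)26Sor, 2510009E07Rik and Xlr3a held in those fits.

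The lower genes were unevenly spread over the chromosomes. On chromosome 16, 84 of 413 tested genes were lower (20.3%) and 3 higher, and on chromosome 8, 65 of 725 were lower (8.97%) and 11 higher, against 4.24% and 3.43% over all genes. The median difference of all tested genes on chromosome 16 was -0.62, and 88.1% of them had a negative difference. It was low in both lines, with -0.51 in F KSR2 and -0.71 in F KSR4, and in each KSR-iPSC library, from -0.87 to -0.46. On chromosome 8 the median was -0.38, with -0.49 in F KSR2 and -0.28 in F KSR4, and F KSR4 replicate 1 lay at -0.03 while the others were at -0.29 or lower. The medians of the other autosomes lay between -0.16 and 0.09, with 1.48 to 5.16% of their genes lower. Chromosome 12 was the highest of them, at 0.25 in F KSR2 and -0.14 in F KSR4. Together, chromosomes 8 and 16 held 149 of the lower genes, or 26.3%, on 1138 of the tested genes. With these 2 chromosomes left out before the fit, an alternative added after the values had been seen, 424 genes were higher and 397 lower. Without chromosomes 4, 6 and 16, an alternative set with earlier results of these data known, 398 were higher and 405 lower. Whether the number of copies of a chromosome differs between lines was not tested. The genes named above include Gsk3b, Casr, 2510009E07Rik and Etv5 on chromosome 16 and Dusp4 and Junb on chromosome 8. Of the listed FGF and ERK pathway components, 3 lie on these chromosomes as well.

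**Figure D5:**
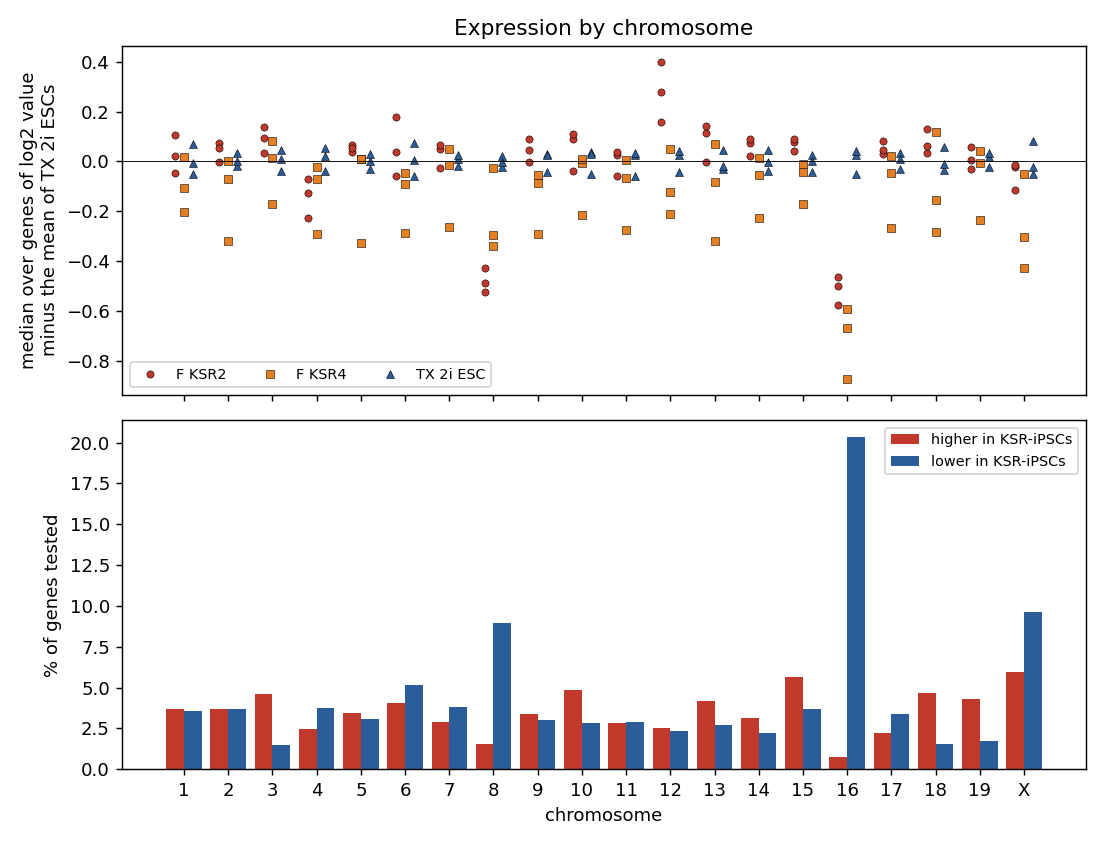
The upper panel shows for each chromosome (x axis) and library the median over its tested genes of the log2 value minus the mean of TX 2i ESCs (y axis), and the lower panel the percentage of its tested genes called higher (red) or lower (blue). Chromosome 16 lies between -0.87 and -0.46 in the 6 KSR-iPSC libraries, with 20.3% of its genes lower, and is the lowest chromosome in all of them but F KSR2 replicate 2, where chromosome 8 is at -0.49.

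The X chromosome took a slightly smaller share of the reads in the KSR-iPSCs. X-linked genes received 4.77, 4.84 and 4.81% of the reads on genes in F KSR2, 4.62, 4.28 and 4.39% in F KSR4 and 4.85, 4.97 and 5.02% in TX 2i ESCs. All 6 KSR-iPSC libraries were under all 3 ESC libraries, and the F KSR4 libraries were the lowest. The means were 4.62% ± 0.233 (SD, n = 6) and 4.94% ± 0.0859 (SD, n = 3), a difference of -0.324 percentage points (exact two-sided permutation test, p = 0.0238, the smallest that 6 against 3 libraries can give). F KSR2, F KSR4 and TX 2i ESCs are each a single line, so this p measures the spread between cultures and not between lines. With means of 4.81% and 4.43%, F KSR2 and F KSR4 lay further apart than F KSR2 and the ESCs. Without the mitochondrial and the 50 most abundant genes the difference was -0.369 points with the same p. Without any 1 of the ESC libraries it was -0.288 to -0.372 points with an exact permutation p of 0.0714, the smallest that 6 against 2 allow. Of 518 X-linked genes tested, 50 were lower (9.65%) and 31 higher (6.0%), against 4.24% and 3.43% over all genes. Their median difference was -0.13, with -0.04 in F KSR2 and -0.28 in F KSR4.

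Xist, the RNA that coats an inactive X chromosome (chrX:103460375-103483217, GRCm38, minus strand), had 350, 608 and 176 reads in F KSR2, 1359, 1050 and 556 in F KSR4 and 44, 17 and 7 in the ESCs. The F KSR2 libraries, at 3.42 to 5.03 log2 RPM, did not overlap with those of F KSR4, at 5.23 to 6.23, and both lay above the ESCs, against which Xist rose by 5.01 (SE 0.60, adjusted p = 0.000379). Its level in female MEFs, which keep one X inactive, had a mean of 8.82. Tsix, its antisense partner, lay between 3.63 and 5.31 in the KSR-iPSCs and between 2.92 and 4.47 in the ESCs (difference 0.76, adjusted p = 0.300).

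The lines were also set against the ESCs one by one. These comparisons share the ESC libraries, so the values of each are given side by side. F KSR2 differed from TX 2i ESCs in 667 genes (4.99% of those tested), with 313 higher and 354 lower, and F KSR4 in 834 genes (6.24%), with 305 higher and 529 lower. Same-numbered libraries of F KSR2 and the ESCs deviated together (correlations of 0.189 to 0.304), and with the replicate number as a block, added after the values had been seen, F KSR2 differed in 1046 genes, 501 higher and 545 lower. The values of single genes that follow are from the fit without the block. Spry4 differed by 9.47 in F KSR2 and 7.33 in F KSR4, Etv4 by 6.08 and 5.54, Egr1 by 5.55 and 5.65, Nanog by -1.43 and -1.56, Lin28a by 2.35 and 1.85, Plagl1 by -3.93 and -3.55, and Xist by 4.25 and 5.77, all past the threshold in both. Junb (1.51 and 1.29) and Scd2 (-1.75 and -1.25) also passed in both, whereas Id1 (2.94 and 2.50), Cdx1 (-3.50 and -2.23) and Gata6 (3.15 and 2.84) passed in F KSR2 and not in F KSR4, with adjusted p of 0.0726, 0.0546 and 0.0501 in the latter.

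Set against each other, F KSR2 and F KSR4 differed in 5 genes (0.0374%), all lower in F KSR2, and no gene of the lists was among them. In limma 1334 genes had an unadjusted p under 0.05, of which 872 were higher in F KSR2. The 5 were Gm10068, Acot7, Elmod3, Retsat and Clec4a1, singled out after their values were seen. Elmod3, Retsat and Clec4a1 lie on chromosome 6, and the part of the disomy of F KSR2 in their differences was not tested. Elmod3, a gene of the ELMO domain family, had 83, 90 and 63 reads in F KSR2, 2017, 762 and 919 in F KSR4 and 99, 163 and 107 in the ESCs, so F KSR4 was the group that stood apart. For Acot7, an acyl-CoA thioesterase, F KSR2 stood apart, at 4.22 to 4.65 log2 RPM against 5.84 to 6.28 in F KSR4 and 5.74 to 5.88 in the ESCs. Retsat, the retinol saturase, lay at 3.12 to 3.79, 5.09 to 5.94 and 5.50 to 5.94 in the same order, and Gm10068 at -0.99 to 1.05, 3.15 to 4.04 and 3.94 to 4.33. Clec4a1, a C-type lectin, had 134 to 273 reads in the ESCs, 30 to 76 in F KSR4 and no more than 3 in F KSR2.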

How the data were processed

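RNA was sequenced from polyadenylated transcripts of 3 biological replicates per group. According to the study's methods and processing notes, reads were trimmed with Trim Galore 0.6.1, aligned to GRCm38 with HISAT2 2.1.0 and counted on genes by strand in SeqMonk. The authors deposited log2 RPM values, in which a gene without reads is held at 0.9 read. Reads were recovered for limma-voom, and at least 99.988% of each library's values came to whole reads, with a tolerance of 0.05 read. The columns of all reads were used, and 54 columns of per-sample values, in which reads are split by allelic information, were not. Genes were tested in R 4.3.3 with limma 3.58.1 and an intensity trend, at a Benjamini-Hochberg adjusted p of 0.05 over all genes tested. The fit was tested on simulated data. The lines were compared in a fit with a mean per group. Figures were drawn with matplotlib 3.10.9.

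Alternatives were another pseudocount (1 RPM), limma-voom, median centring, quantile normalization, other filters, no trend, a line effect, a replicate block, leaving out chromosomes 4, 6 and 16, and leaving out each library. Each same-numbered correlation was over 0.1 only for F KSR2 with the ESCs, so the count with a replicate block is given beside that comparison. The values and calls of single genes come from the fits without the block. Named genes were Spry4, Etv4 and Nanog, list members past the threshold, and the 10 largest increases and decreases among called genes without overlap and with a mean log2 level above 2 in the higher group. Members that did not pass are named with their values, and the genes that differ between the lines were added. The members and lists were chosen with earlier results of these data known. As the labels do not say how the biological replicates were grown apart, p-values measure the spread between these samples.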

Additional observations from a re-analysis of the deposited data

Results flagged for a closer look

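Among 109 named genes past the threshold, 8 had 1 of the 6 KSR-iPSC libraries far from the others by Dixon's test, which by chance marks about 1 in 20 groups. F KSR4 replicate 2 was lowest for Enpp3 (2.91 log2 RPM) and Spred2 (5.16). F KSR4 replicate 3 was lowest for Xlr3a (-1.89), Xlr4c (-3.89) and Hoxc4 (-3.89). F KSR2 replicate 2 was lowest for Tagln (-0.32) and Aldh1a3 (-4.22), and F KSR4 replicate 1 was highest for Grhl2 (5.76). Called genes whose 2 lines differed from each other past the threshold numbered 0 among those named by rule. The causes were not tested.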

How the results depend on the processing

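Leaving out single libraries gave 293 to 1498 called genes, 166 to 689 higher and 127 to 809 lower, with the lowest counts without an ESC library, when 2 libraries remain in that group, and the highest without F KSR4 replicate 2. Under the other settings the counts stayed within 1.5 times of the 1026, from 787 with a log2 value above 2 required to 1256 with a replicate block, and median centring gave 573 higher and 449 lower. Same-numbered libraries deviated together with correlations of 0.042 to 0.424, not all over 0.1, so the replicate numbers were not taken as pairs of the 6 and 3 libraries and the block with its 1256 calls is an alternative only. Each of the 6 KSR-iPSC libraries deviated most like the ESC library of its own number, a hint from the data and not from the design. The block ended the calls of Hmgcs1 (adjusted p = 0.0515) and Fth1 (0.0519) among the named genes, and gave 1046 calls for F KSR2, 1272 for F KSR4 and 9 between the lines. The X-linked difference ran from -0.372 to -0.257 points without single libraries, and without an ESC library the exact permutation test gave p = 0.0714. Of 109 named genes past the threshold, 100 were tested in all 3 fits without an ESC library and 9 in none of them. Of the 100, 46 kept their call in those 3 fits and 41 in every alternative run. Of the 109, 75 kept it in every other alternative in which they were tested, limma-voom ended 22 calls and no filter on low values 21, and 0 changed direction. With 3 ESC libraries of 1 line, genes that missed the threshold are not shown to be equal, and genes under about 3 reads are read as at the floor.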

Other observations

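Several gene groups outside the lists stood out among the called genes. They were chosen after the values had been seen, so their counts are descriptions and support no direction. Over all genes tested 3.43% were higher and 4.24% lower.

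Of 17 tested genes of retinoic acid signalling, the vitamin A pathway that patterns embryos and starts meiosis, 9 rose and 2 fell, with a median difference of 1.37 against -0.08 over all genes. Beside Stra8, the receptors Rara, Rarg and Rxrg rose by 1.37, 2.37 and 4.45, the carrier Crabp2 by 2.76, the retinol uptake receptor Stra6 by 4.13, and the degrading enzyme Cyp26a1 by 4.14. Cyp26a1 lay between 0.01 and 2.07 log2 RPM in the KSR-iPSCs and at -4.31, -1.90 and -3.97 in TX 2i ESCs. The synthesising enzymes Aldh1a3 and Aldh1a2 fell by 4.38 (adjusted p = 0.0100) and 1.88 (adjusted p = 0.0160). Aldh1a3 was at 3.79, 3.85 and 3.38 in the ESCs and between -4.22 and 0.66 in the KSR-iPSCs. Without TX 2i ESC replicate 1 Rara, Rxrg, Dhrs3 and Aldh1a3 were not called (adjusted p 0.0629 to 0.0841), without replicate 2 Rxrg, Aldh1a2 and Aldh1a3 were not (0.0557 to 0.0698), and without replicate 3 Aldh1a2, Dhrs3 and Rara were not (0.0511 to 0.145). Dhrs3 also missed with limma-voom (0.0583) and Rxrg on log2(RPM + 1) (0.102).

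Of 15 tested smooth muscle and actin-binding genes 9 rose and 0 fell in limma, with a median of 2.67, and limma-voom called 3 higher. Ankrd1 and Tgfb1i1 rose by 4.96 and 4.61 and the skeletal actin gene Acta1 by 5.07, while Vcl (0.10) and Smtn (0.35) did not pass. Tagln, Acta2 and Cnn1 were high in female MEFs, with means of 11.07, 12.29 and 7.61 log2 RPM, and the part of fibroblast RNA was not tested. Without 1 of the ESC libraries Cnn1 and Myl9 were lost in each case (adjusted p 0.0774 to 0.182), Acta1 without replicate 1 or 2 (0.0585 and 0.0521), Fhl2 without replicate 1 (0.0965) and Cnn2 without replicate 2 (0.0522). Cnn1 was also lost without replicate 3 of F KSR2 or of F KSR4 (0.0539 and 0.0536), and Myl9 without replicate 1 or 3 of either line (0.0587 to 0.0715). The promoters of 5 of 14 matched members held a CArG box (Acta1, Cnn2, Fhl2, Myl9 and Vcl), and 1.63% of all single promoters did. A member counts with a match in any of its promoters, so the shares are of unlike units. Such a match is a description only. The promoter of Acta1 (chr8:123894726-123895025, GRCm38.p6, RefSeq, minus strand) is shown with the box in capitals, 73 bases before the start site, because Acta1 had 0 reads in 2 of the 3 ESC libraries and 1 in the other.
Acta1 promoter: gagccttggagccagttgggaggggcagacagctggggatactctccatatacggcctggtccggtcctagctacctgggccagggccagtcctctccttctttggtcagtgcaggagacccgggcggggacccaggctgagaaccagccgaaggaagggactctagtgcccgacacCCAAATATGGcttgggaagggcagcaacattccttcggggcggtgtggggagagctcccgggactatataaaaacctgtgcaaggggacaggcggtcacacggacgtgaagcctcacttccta

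Other groups were smaller. Of 4 tested collagen VI genes 3 rose, Col6a5 by 5.84, Col6a4 by 3.67 and Col6a2 by 3.59, and Col6a1 differed by 1.48 without passing. Of 6 tested MHC class II genes 3 fell, H2-Aa by 3.41, H2-Eb1 by 3.32 and H2-Ab1 by 3.25. H2-Eb1 stood at 5.95, 6.41 and 5.87 in the ESCs and between 1.48 and 3.54 in the KSR-iPSCs. Of 15 tested Hox genes 5 fell and 0 rose in limma, and limma-voom called 6 lower and 0 higher. Of the 5, Hoxa9, Hoxa10 and Hoxa13 passed the filter on low values through the ESC libraries, so those 3 could only come out lower, and the count supports no direction. They and H2-Aa were not tested in any fit without an ESC library. Hoxa9 had a mean of 0.13 log2 RPM in the ESCs and -4.21 in the KSR-iPSCs, so these are low levels. H2-Ab1, Hoxc4 and Hoxc13 were not called without any 1 of the ESC libraries (adjusted p 0.0577 to 0.203), Col6a4 without replicate 1 or 2 (0.0800 and 0.0673) and Col6a2 without replicate 1 or 3 (0.0825 and 0.0609). Hoxc4 was also lost without any 1 F KSR2 library or F KSR4 replicate 1 (0.0513 to 0.0635), and Hoxc13 without F KSR2 replicate 2 or 3 or F KSR4 replicate 3 (0.0581 to 0.0714), and both with median centring (0.0542 and 0.0615).

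Of 10 genes of the X-linked Xlr family 8 fell and 0 rose in limma (9 and 0 in limma-voom), with a median of -2.97. Xlr3c stood at 5.54, 5.72 and 5.54 in the ESCs and between 1.05 and 2.97 in the KSR-iPSCs (difference -3.79, adjusted p = 0.000177). These genes have near-identical copies, so the share of each is uncertain. Xlr4c, Xlr5a and Xlr5b were not called without any 1 of the ESC libraries (adjusted p 0.0623 to 0.170), nor were Xlr4c without F KSR2 replicate 2 or 3 (0.0508 and 0.0527) and Xlr5b without F KSR2 replicate 2 or 3 or F KSR4 replicate 1 or 3 (0.0560 to 0.0664). Xlr5b also missed with median centring (0.0520) and Xlr4c without a trend (0.0517).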
